A study of Mus musculus with 3 samples.

Results

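The genes described here are 10 abundant genes of the actin cytoskeleton: the actins Actb and Actg1, the thymosins Tmsb4x and Tmsb10, and the genes Cfl1, Pfn1, Coro1a, Arpc2, Msn and Vim. They were chosen by symbol from the 28074 gene symbols of the deposited table, and for their high level in these same libraries, so their levels and their differences between mice are a description with no test. All 10 were found, each on its own row, and all 10 passed the filter of a mean of at least 1 TPM (a transcript level already divided by transcript length and scaled to the library total), which 15181 symbols passed. The RNA came from acute myeloid leukemias of 3 mice, which form 1 group, called mice 1, 2 and 3 here. By the genotype label, each mouse had lost miR-196b on both chromosomes, carried floxed Dnmt3a and Flt3-ITD alleles on both chromosomes, and had the Mx1Cre transgene, while the titles give Dnmt3a+/-. Mx1Cre is driven by an interferon-inducible promoter, so deletion is not limited to the leukemic cell type. Ages are not given. Leukemic spleen cells were taken from moribund animals, freed of red cells and enriched for c-Kit on magnetic beads, and each library is 1 mouse. The study set these leukemias against others with miR-196b intact, which were not used here, so no value below shows an effect of the deletion.

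Actin monomers join into filaments that give a blood cell its shape, its motility and its cortex. Thymosins hold monomers in reserve, profilin feeds them to growing ends, the Arp2/3 complex starts branches, and cofilin and coronin take filaments apart. Moesin ties filaments to the plasma membrane, and vimentin forms a separate, intermediate type of filament that is typical of mesenchymal and many blood cells. Genes for actins and several of their partners are known targets of SRF, a transcription factor that binds a DNA motif called the CArG box and is assisted by MRTF proteins, which sense the pool of free actin.

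The labelled cell type was checked against markers. Kit had 139, 149 and 133 TPM in mice 1, 2 and 3, and Flt3 had 146, 157 and 106 TPM. The cells were enriched for c-Kit, so the level of Kit is no separate check of the cell type. Ptprc, which encodes the pan-leukocyte antigen CD45, was low for blood cells, at 2.25, 3.09 and 2.40 TPM. The reason was not tested. The 7 leukemia and progenitor genes, Kit and Flt3 among them, summed to 774, 636 and 606 TPM. Kit, Flt3 and Ptprc were highest in mouse 2, against 31.1% of all genes. The other 4, Cd34, Myb, Meis1 and Hoxa9, were highest in mouse 1, against 48.6%. Column sums were 929731, 927169 and 928490. Read numbers cannot be had from TPM, so the depth of these libraries is unknown, and the spread between mice is the error given.

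Together the 10 genes took 2.26%, 3.39% and 2.85% of the summed TPM of mice 1, 2 and 3, a mean of 2.83% ± 0.567 (SD, n = 3). The share was lowest in mouse 1 and highest in mouse 2. The labels name both ribosome depletion and an mRNA kit, which leave different RNAs in the total that such a share is taken of. Actb and Tmsb4x alone made up 57.1%, 62.9% and 63.1% of it. On the log2(TPM + 1) scale the median over the 10 genes was 10.43 ± 0.09 (SD, n = 3), against 4.19 ± 0.08 over all 15181 genes.

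Actb, the beta-actin gene (GRCm38, chr5:142903115-142906754, minus strand), had 7276, 11501 and 9504 TPM in mice 1, 2 and 3, and its mean ranked 3 among all symbols. Mouse 1 was the lowest and mouse 2 the highest, 1.58-fold apart. Actg1, the gamma-actin gene (chr11:120345690-120348542, minus strand), had 1979, 2861 and 2154 TPM. Mouse 2 again stood above the other mice, by 1.45-fold over mouse 1 and 1.33-fold over mouse 3. The other actin genes, which serve muscle or are little studied, were low: Acta1, Acta2, Actc1 and Actg2 each stayed below 0.5 TPM in every mouse, and Actbl2 was listed at 0 in all 3.

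Beta- and gamma-actin differ by a few residues, and their transcripts by more, mostly in the untranslated regions. Actb exceeded Actg1 by 3.68-fold, 4.02-fold and 4.41-fold in mice 1, 2 and 3. This ratio does not depend on how a library is scaled. It averaged 4.04 ± 0.368 (SD, n = 3). On the log2 scale its SD was 0.13, against 0.33 for the level of Actb.

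A promoter sequence is shown for Actg1 because it was the only member, of 9 searched, whose promoter window held a CArG box. RefSeq promoter windows on GRCm38.p6, from 250 bases before to 50 after an annotated start, were at hand for 9 members in 12 windows and not for Actb. The CArG box was searched on both strands and was found in 1.63% of all 32851 windows of that length. In Actg1 it begins 90 bases before the RefSeq start and reads the same on both strands. The 250 bases before the start, at chr11:120348496-120348745 on the minus strand, are printed 5′ to 3′ with the CArG box in capitals.
Actg1 promoter: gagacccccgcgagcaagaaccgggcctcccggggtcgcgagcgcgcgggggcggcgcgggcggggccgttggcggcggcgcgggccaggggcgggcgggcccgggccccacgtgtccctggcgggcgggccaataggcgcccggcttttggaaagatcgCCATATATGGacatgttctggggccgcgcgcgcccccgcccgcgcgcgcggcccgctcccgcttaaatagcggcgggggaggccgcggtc

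The TATA motif TATAAA, searched the same way, was in 13.6% of all windows and, among members, in that of Vim, 32 bases before the start. A motif match is a description of the letters and not a binding site.

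Tmsb4x encodes thymosin beta 4, the main protein that holds actin monomers in reserve. It lies on the X chromosome (chrX:167207093-167209315, minus strand) and had 4712, 8279 and 7182 TPM in mice 1, 2 and 3, ranking 6 among all symbols. Mouse 1 was below both others, 1.76-fold below mouse 2 and 1.52-fold below mouse 3. Tmsb10, the gene of the related thymosin beta 10 (chr6:72957347-72958748, minus strand), had 1479, 2676 and 2442 TPM, with mouse 1 again well below the other mice. Its 1.81-fold range was the widest of the 10 genes.

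The thymosin pair kept nearly the same proportion in every mouse: Tmsb4x exceeded Tmsb10 by 3.19-fold, 3.09-fold and 2.94-fold. The mean ratio was 3.07 ± 0.123 (SD, n = 3). Both thymosins summed gave 0.669, 0.763 and 0.826 TPM per TPM of the summed actins in mice 1, 2 and 3, so thymosin transcripts were scarcest relative to actin in mouse 1.

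**Figure D1:**
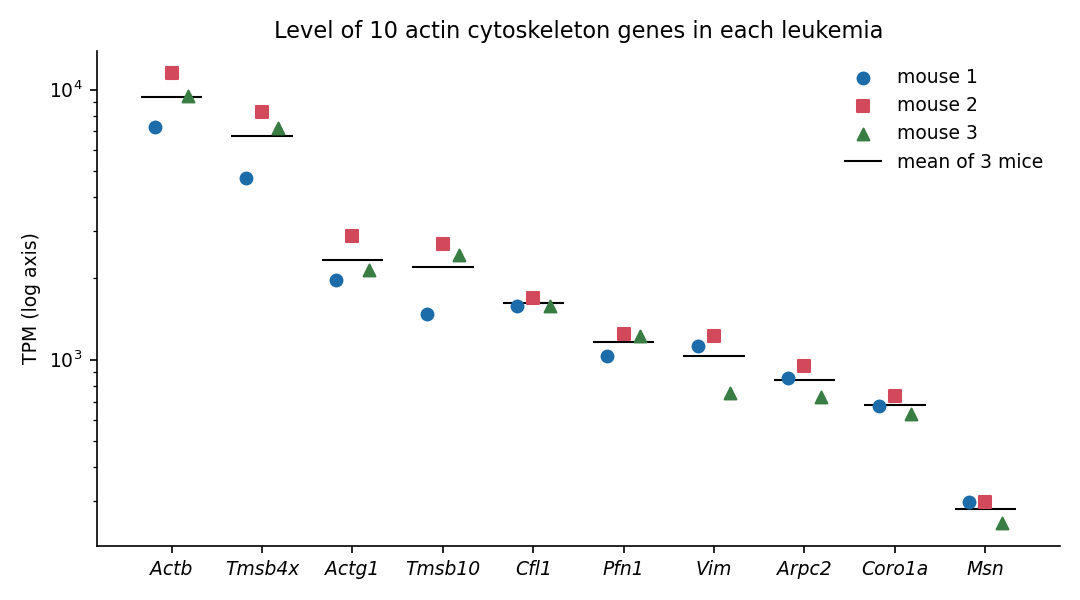
Level of each of the 10 genes in TPM (log axis) in mouse 1 (circles), mouse 2 (squares) and mouse 3 (triangles), with the mean of the 3 mice as a bar. Actb and Tmsb4x have at least 4712 TPM in every mouse, mouse 1 is lowest for both actins and both thymosins, and Vim is lowest in mouse 3 at 753 TPM.

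Among the proteins that act on monomers and filaments, Cfl1 (cofilin 1, which severs filaments; chr19:5490455-5495201, plus strand) was the steadiest of the 10 genes. It had 1581, 1694 and 1583 TPM, a range of 1.07-fold. Its SD of 0.06 log2 units was above that of only 5.40% of the 15181 genes. Pfn1, the profilin gene (chr11:70651850-70654644, minus strand), had 1030, 1241 and 1226 TPM. Mice 2 and 3 were close to each other and 1.20-fold and 1.19-fold above mouse 1. The ratio of Cfl1 to Pfn1 was 1.53, 1.36 and 1.29 in mice 1, 2 and 3.

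Coro1a, the coronin of blood cells (chr7:126699773-126707787, minus strand), had 675, 733 and 632 TPM, a narrow range of 1.16-fold. Arpc2, a core subunit of the Arp2/3 complex (chr1:74236084-74268209, plus strand), had 854, 949 and 728 TPM, with mouse 3 the lowest and mouse 2 the highest, 1.30-fold apart. Msn, the moesin gene (chrX:96096042-96168552, plus strand), had the lowest level of the 10, at 298, 297 and 248 TPM. Mice 1 and 2 did not differ in Msn by more than 0.01 log2 units, and mouse 3 lay below both.

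Vim, the vimentin gene (chr2:13573927-13582826, plus strand), had 1122, 1220 and 753 TPM. Mouse 3 stood apart below the others, 1.62-fold below mouse 2 and 1.49-fold below mouse 1, whereas for the actins and thymosins it was mouse 1 that was lowest. Relative to Actb, Vim was at 0.154, 0.106 and 0.0793 in mice 1, 2 and 3, highest in mouse 1 and lowest in mouse 3. Its log2 ratio to Actb, -3.20 ± 0.48 (SD, n = 3), was the widest of the 4 ratios computed.

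**Figure D2:**
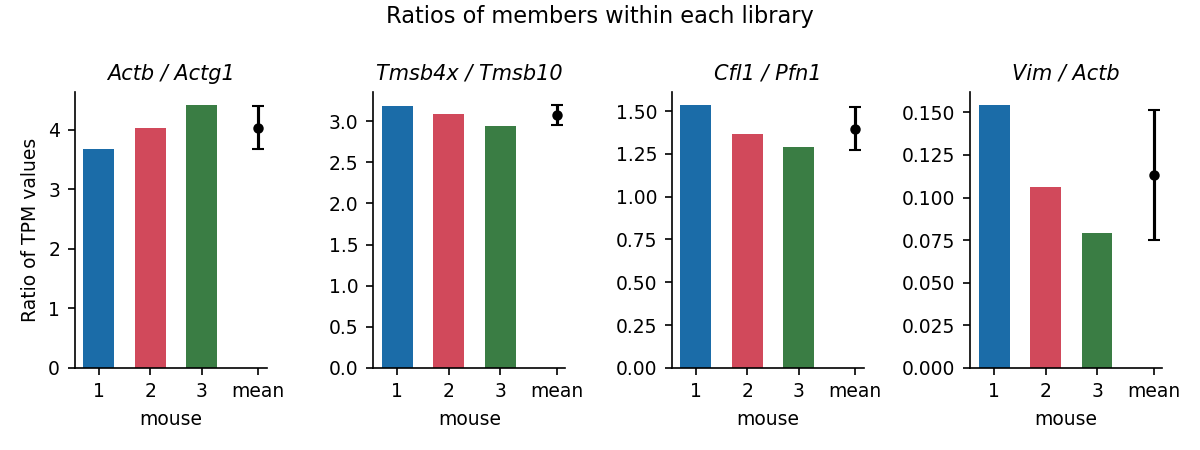
Ratio of TPM values within each library for Actb to Actg1, Tmsb4x to Tmsb10, Cfl1 to Pfn1 and Vim to Actb (bars: mice 1, 2 and 3; black point and whiskers: mean ± SD of the 3 mice). The thymosin ratio stays between 2.94 and 3.19, while Vim to Actb runs from 0.0793 to 0.154.

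In order of their means the genes ran Actb, Tmsb4x, Actg1, Tmsb10, Cfl1, Pfn1, Vim, Arpc2, Coro1a and Msn. Only 3 of the 9 steps separated neighbours whose ranges over the mice did not overlap: Tmsb4x above Actg1 (2.88-fold in the means), Cfl1 above Pfn1 (1.39-fold) and Coro1a above Msn (2.42-fold). Actb exceeded Tmsb4x, Vim exceeded Arpc2, and Arpc2 exceeded Coro1a in all 3 mice although their ranges overlapped. Actg1 and Tmsb10, Tmsb10 and Cfl1, and Pfn1 and Vim each changed places in 1 mouse and cannot be ordered beyond their spread.

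The spread between mice divided the 10 genes. The SD on the log2(TPM + 1) scale was 0.46 for Tmsb10, 0.42 for Tmsb4x, 0.37 for Vim, 0.33 for Actb and 0.28 for Actg1. The other members ranged from 0.06 (Cfl1) to 0.19 (Arpc2). The median SD over the 10 was 0.24, against 0.21 over all 15181 genes and 0.18 over the 1474 genes with a mean of at least 100 TPM. Among those 1474 genes, the SD of Tmsb10 was above that of 92.9%, of Tmsb4x above 90.7%, of Vim above 87.3%, of Actb above 83.2% and of Actg1 above 75.3%.

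**Figure D3:**
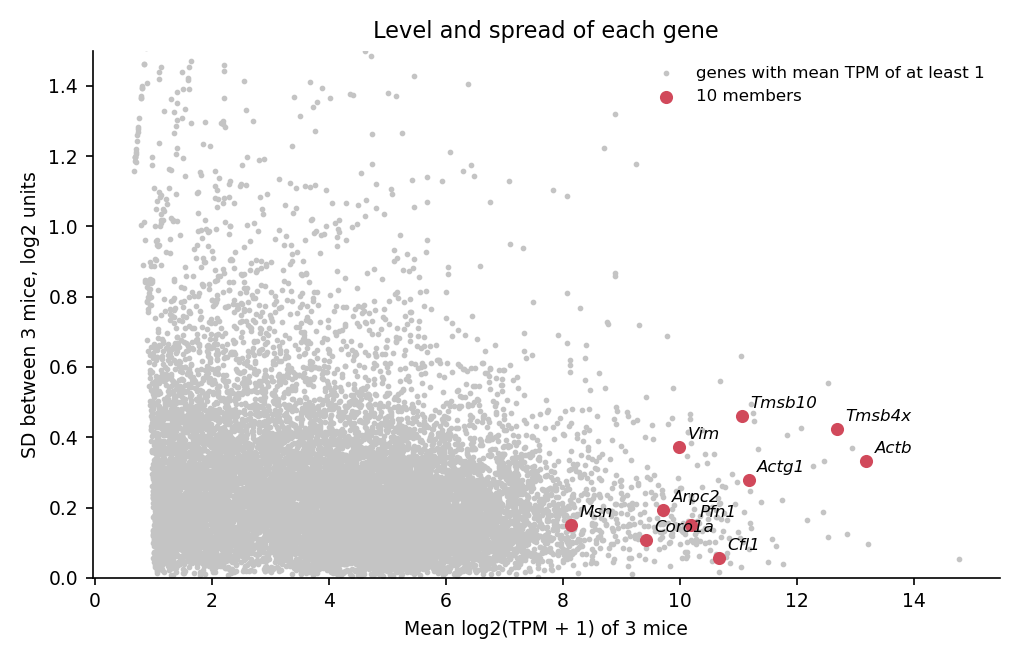
Mean log2(TPM + 1) of the 3 mice (x axis) against the SD between mice in log2 units (y axis) for all 15181 genes (grey) and the 10 members (red); 65 genes with an SD above 1.5 lie outside the plot. Cfl1 sits at 0.06, near the bottom, and Tmsb10, at 0.46, is the highest member.

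Differences of at least 1.5-fold between mice 1 and 2 were found for 3 of the 10 genes, Actb, Tmsb4x and Tmsb10, all higher in mouse 2. Over all 15181 genes, 16.5% were as far apart in these mice, 7.85% higher in mouse 2 and 8.66% higher in mouse 1. Between mice 1 and 3, 2 members passed 1.5-fold, Tmsb4x and Tmsb10, both higher in mouse 3. Of all genes 16.2% did so, 6.36% higher in mouse 3 and 9.81% higher in mouse 1. Between mice 2 and 3 it was Vim alone, higher in mouse 2, against 11.2% of all genes, 6.45% higher in mouse 2 and 4.79% higher in mouse 3. Among the 1474 genes with a mean of at least 100 TPM, 8.41% were at least 1.5-fold higher in mouse 2 than in mouse 1, 4.68% higher in mouse 3 than in mouse 1 and 4.95% higher in mouse 2 than in mouse 3. The members were chosen with these values known, so nothing is read from their shares. Actg1 missed the 1.5-fold mark between mice 1 and 2 as deposited and passed it, at 1.54-fold, once libraries were scaled to a common upper quartile.

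Of the 10 genes, 9 were highest in mouse 2, against 31.1% of all 15181 genes. The exception was Msn, highest in mouse 1 as 48.6% of all genes were, and 0 members were highest in mouse 3, against 20.3%. The 6 genes Actb, Tmsb4x, Actg1, Tmsb10, Cfl1 and Pfn1 were lowest in mouse 1, against 24.4% of all genes, and also highest in mouse 2, against 14.4%. The 4 genes Vim, Arpc2, Coro1a and Msn were lowest in mouse 3, against 42.6%, and 0 were lowest in mouse 2, against 33%. After upper-quartile scaling 9 were again highest in mouse 2, against 33.9% of all genes, now with Msn and without Pfn1. Pfn1 was then highest in mouse 3, against 30.4%, and 0 members were highest in mouse 1, against 35.6%. With Coro1a added, 7 were lowest in mouse 1 after the scaling, against 36%, while 3 were lowest in mouse 3, against 30.5%, and 0 in mouse 2, against 33.5%. The median difference of mouse 2 from mouse 1 was 0.21 log2 units over the 10 genes and -0.08 over all genes, and after the scaling it was 0.30 and -0.00093. These genes are parts of 1 structure and not independent, and the members were chosen with their values known, so the counts describe these 3 libraries.

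**Figure D4:**
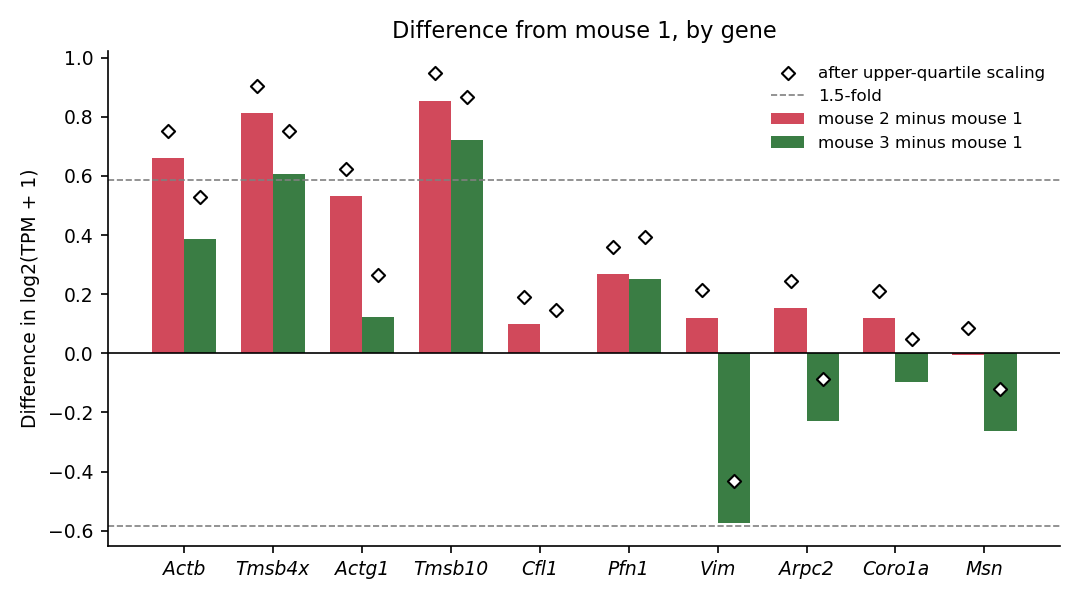
Difference in log2(TPM + 1) from mouse 1 for mouse 2 (red bars) and mouse 3 (green bars) by gene, with open diamonds for the same differences in log2 TPM after upper-quartile scaling and dashed lines at 1.5-fold. The actins and thymosins are higher in mouse 2 by 0.53 to 0.85, Cfl1 by 0.10, and Vim is lower in mouse 3 by more than any other member.

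Markers of other cell types that an enriched spleen sample could hold also differed between the mice, and their part in the values above was not tested. Of all genes, 24.4% were lowest in mouse 1, 33% lowest in mouse 2, 31.1% highest in mouse 2 and 20.3% highest in mouse 3. At least 1.5-fold higher in mouse 2 than in mouse 1 were 7.85% of all genes. Of 8 late neutrophil genes, 8 were highest in mouse 3 and lowest in mouse 1, with summed levels of 2469, 6456 and 21481 TPM in mice 1, 2 and 3. Of 8 dendritic cell genes, which include Flt3 as the leukemia list does, 5 were highest in mouse 2 and 7 were lowest in mouse 1, and their sums were 531, 1003 and 707 TPM, the order of mice of Actb. The 9 monocyte and macrophage genes listed summed to 389, 402 and 728 TPM, most of it from Ly6c2 (291, 229 and 559 TPM), with Marco listed at 0 in every mouse. Of the 7 with a mean of at least 1 TPM, 5 were lowest in mouse 1, 5 were highest in mouse 3 and 5 were at least 1.5-fold higher in mouse 2 than in mouse 1. Csf1r, the receptor for a macrophage growth factor, had 8.35, 15.6 and 24.8 TPM, and Cd68 had 68.2, 124 and 107 TPM. The 8 platelet and megakaryocyte genes, from cells rich in thymosin beta 4, summed to 78.8, 50.1 and 96.6 TPM. Of the 7 with a mean of at least 1 TPM, 5 were lowest in mouse 2 and 2 in mouse 1. Itga2b, an integrin gene, had 49.0, 15.5 and 18.2 TPM and was highest in mouse 1, whereas the platelet chemokine genes Pf4 (6.73, 20.4 and 51.0 TPM) and Ppbp (1.11, 1.56 and 5.83 TPM) were lowest in mouse 1, as Tmsb4x was. The 6 erythroid genes listed summed to 41.1, 27.1 and 68.5 TPM, the 8 T and NK cell genes to 16.1, 22.2 and 24.7 TPM, and the 6 B cell genes to 47.4, 89.7 and 124 TPM. Most of the B cell sum came from Ighm (32.2, 76.8 and 108 TPM). Stromal and endothelial genes, from cells that also contain much vimentin and actin, summed to 66.7, 53.2 and 54.2 TPM over 8 genes. Most of it came from Pecam1 (41.8, 39.1 and 42.5 TPM), and Col1a1, Col1a2, Col3a1, Cdh5 and Acta2 were below 1 TPM in every mouse. In bulk RNA, fewer cells of a type and less RNA per cell cannot be told apart.

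The other genes of the actin cytoskeleton, 132 listed with a mean of at least 1 TPM out of 153 listed, had a smaller median difference between mice 1 and 2 than the 10 members. At least 1.5-fold higher in mouse 2 than in mouse 1 were 11 of the 132 (8.33%), against 7.85% of all genes. Lower by as much were 11, against 8.66% of all genes. The median difference of the 132 was 0.05 log2 units, against 0.21 for the members, and the difference between these medians was not tested. Of the 132, 65 (49.2%) were highest in mouse 2 as deposited and 69 after upper-quartile scaling, against 31.1% and 33.9% of all genes. The median SD of the 132 was 0.20. By mean level, 21 of them stood above Msn, led by Tpm3, so the 10 members are not the 10 most abundant genes of the pathway.

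Subunits of the Arp2/3 complex differed little between mice. All 9 other subunit genes were expressed, with a median SD of 0.10. As Arpc2 was, 7 of them were highest in mouse 2, against 31.1% of all genes. After upper-quartile scaling it was 6, against 33.9%. Arpc1b, the isoform typical of blood cells, had 546, 564 and 487 TPM, close in all mice. Actr3, which takes the place of an actin at the base of a branch, had 442, 563 and 432 TPM. Arpc3 had 303, 402 and 394 TPM. Actr3b, a minor isoform of Actr3, was the exception, with 9.04, 3.79 and 2.70 TPM, highest in mouse 1. Arpc2 itself, at a mean of 844 TPM, was the most abundant subunit gene.

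Among other proteins that bind actin monomers, 7 of 11 genes had a mean of at least 1 TPM. Against 48.6%, 31.1% and 20.3% of all genes, 3 of these 7 were highest in mouse 1, 3 in mouse 2 and 1 in mouse 3. Their median difference of mouse 2 from mouse 1, -0.34 log2 units, was that of the low gene Pfn2 (3.64, 2.66 and 2.15 TPM), while their summed level, 463, 571 and 479 TPM, was highest in mouse 2. Cap1, which recycles monomers, led them with 316, 437 and 356 TPM and was highest in mouse 2. Twf1 and Twf2 encode twinfilins, and while Twf1 was highest in mouse 1 (43.4, 26.4 and 22.1 TPM), Twf2 was even (86.1, 95.5 and 86.6 TPM). Further thymosin genes were low beside the members: Tmsb15b1 had 10.1, 6.03 and 8.38 TPM, Tmsb15l had 2.31, 0.914 and 2.84 TPM, and Tmsb15b2 had 0.330, 2.23 and 0.736 TPM.

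Of 13 other genes for severing and disassembly, 12 were expressed. Gsn, which encodes the severing and capping protein gelsolin, differed most between mice, with 94.7, 207 and 161 TPM, the order of mice of Actb. Coro2a had 329, 299 and 178 TPM, lowest in mouse 3 as Vim and 42.6% of all genes were, and highest in mouse 1, unlike Vim. Coro7 had 225, 269 and 209 TPM, and Wdr1, a partner of cofilin, had 213, 258 and 219 TPM. Both were highest in mouse 2 within a narrow range.

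Of 25 nucleation promoting factors and formins, 23 were expressed, with a median difference of mouse 2 from mouse 1 of 0.01 log2 units. Fmnl1, a formin of blood cells, had 234, 263 and 178 TPM, and Fmnl2 had 64.7, 112 and 86.5 TPM. Hcls1, the blood cell relative of cortactin, had 172, 233 and 200 TPM. Nckap1l, the blood cell subunit of the WAVE complex, had 183, 218 and 166 TPM, whereas its widely expressed paralog Nckap1 had 4.60, 1.66 and 4.23 TPM. Filament capping genes included Capzb at 363, 466 and 383 TPM, Capza2 at 379, 386 and 365 TPM and Capza1 at 155, 166 and 166 TPM. The capping alpha subunits were thus as steady as Cfl1, with SDs of 0.04 and 0.06 log2 units. The minor capping genes Lrrc16a (4.07, 9.26 and 9.97 TPM) and Tmod1 (2.06, 0.494 and 2.17 TPM) varied most.

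Crosslinking and side-binding genes reached the level of the less abundant members. Tpm3, a tropomyosin gene, had 857, 929 and 726 TPM, Tagln2 had 687, 685 and 551 TPM, and Lcp1, the gene of the blood cell bundling protein L-plastin, had 599, 768 and 634 TPM. Of the 21 expressed genes of this list, 12 were highest in mouse 2, against 31.1% of all genes, and 14 after upper-quartile scaling, against 33.9%. At least 1.5-fold higher in mouse 2 than in mouse 1 were 4, against 7.85% of all genes. Fscn1, the fascin gene, was 15.9, 40.0 and 30.2 TPM, again lowest in mouse 1. Enah was highest in mouse 1, with 78.0, 29.5 and 20.4 TPM.

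Relatives of moesin and other membrane linkers, 7 genes with a mean of at least 1 TPM, had a median SD of 0.17 log2 units. None of the 7 passed 1.5-fold between mice 1 and 2 on the log2(TPM + 1) scale, against 16.5% of all genes. Spn fell just short of it. Ezr, the ezrin gene, had 153, 146 and 108 TPM, lowest in mouse 3 as Msn and 42.6% of all genes were. Cd44, a membrane partner of moesin, had 195, 226 and 206 TPM, and Selplg had 165, 207 and 175 TPM. Spn, also a moesin partner, had 157, 105 and 122 TPM, highest in mouse 1, with an SD of 0.29 log2 units. Of the 7 genes, 5 were highest in mouse 1 as deposited, against 48.6% of all genes, and 2 after upper-quartile scaling, against 35.6%.

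Myosin genes that pull on actin filaments included Myl6, at 593, 828 and 859 TPM, Myh9, at 393, 480 and 411 TPM, and Myl12b, at 228, 254 and 268 TPM. All 3 were lowest in mouse 1. Of the 10 genes of this list with a mean of at least 1 TPM, 5 were lowest in mouse 1, against 24.4% of all genes. Lowest in mouse 3 were 4, against 42.6%. Myh10 (17.0, 12.7 and 20.7 TPM) and Myh14 (2.49, 2.01 and 0.691 TPM), the other heavy chains of this class, were low in every mouse.

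Intermediate filament genes other than Vim were led by nuclear lamins. Lmnb1 had 178, 152 and 177 TPM and Lmna 68.0, 77.4 and 51.8 TPM. Plec, a linker of vimentin to actin, had 111, 67.8 and 54.5 TPM, and Krt18 had 7.90, 4.56 and 5.44 TPM. Plec was lowest in mouse 3, as Vim and 42.6% of all genes were. It was highest in mouse 1, and Vim in mouse 2. Vim, at a mean of 1032 TPM, stood far above Des, Krt8, Nes and Prph, which stayed below 1 TPM in every mouse.

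**Figure D5:**
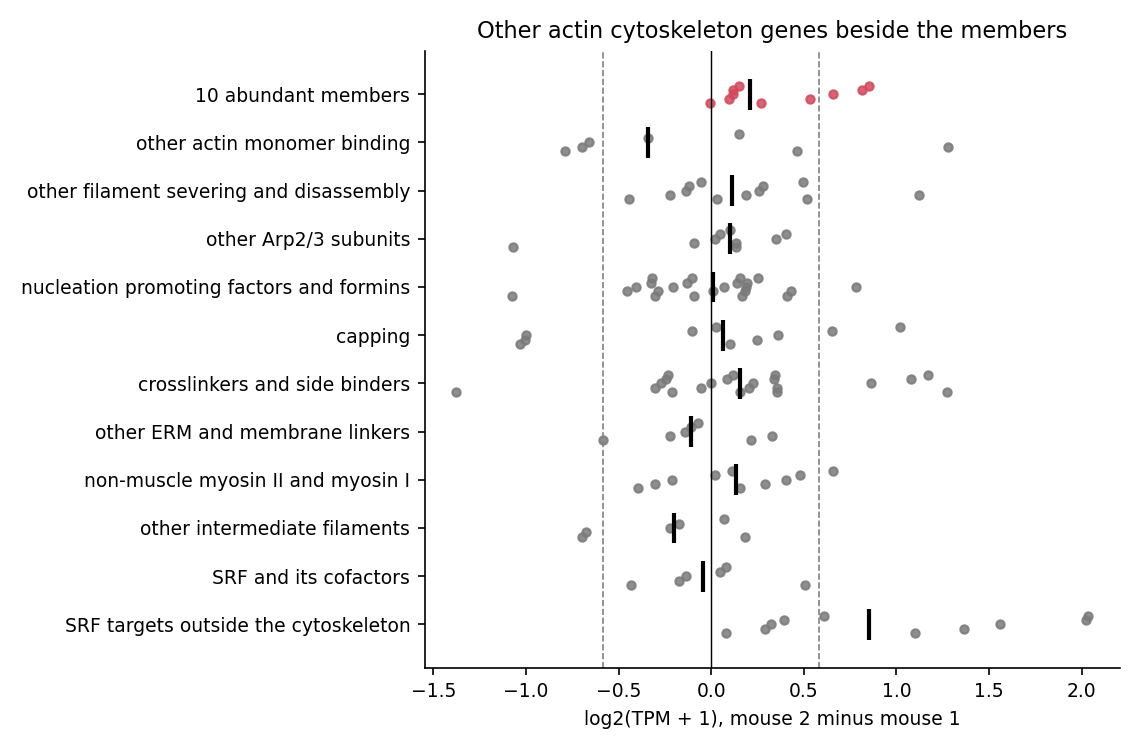
Difference of mouse 2 from mouse 1 in log2(TPM + 1) for each gene with a mean of at least 1 TPM, by list (red: the 10 members; grey: genes of the other lists plotted; black bar: median of the list; dashed lines: 1.5-fold). The member median is 0.21, the plotted lists of other actin genes centre between -0.34 and 0.15, and the list of SRF targets outside the cytoskeleton centres at 0.85.

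SRF and its cofactors showed no common direction. Mkl1, which encodes an MRTF cofactor, had 90.4, 129 and 93.0 TPM, Elk4 had 186, 137 and 115 TPM, and Elk3 had 34.4, 30.4 and 31.0 TPM. In contrast, 9 of 10 expressed SRF target genes outside the cytoskeleton, most of them immediate early genes, were highest in mouse 2, against 31.1% of all genes, and 6 were at least 1.5-fold higher there than in mouse 1, against 7.85%. Srf itself stands in both lists. These counts are a description, since values of these genes were known when the list was chosen. A part of SRF in the differences between mice was not tested. Fos had 563, 1455 and 821 TPM and Junb had 179, 273 and 219 TPM, both in the order of mice of Actb. Egr2 (3.15, 15.9 and 11.3 TPM) and Egr3 (3.82, 18.7 and 12.5 TPM) had the widest spread. Mcl1 had 243, 299 and 232 TPM.

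Genes with a profile like that of Actb were sought among the 1474 genes with a mean of at least 100 TPM, by the distance between log2 profiles over the 3 mice after centring each gene. Outside the members the nearest were Plcb2 (80.5, 131 and 107 TPM), Cd82 (105, 163 and 134 TPM), Unc93b1 (227, 357 and 287 TPM), Junb and H2-T23 (107, 159 and 138 TPM), at distances of 0.02 to 0.07 log2 units. Among the members, Tmsb4x was nearest to Actb, at 0.16, and ranked 41 of 1473. Actg1 followed at 0.19 and Tmsb10 at 0.24, while Vim was the farthest, at 0.68, and ranked 1049. With 3 mice a profile holds little information, and many unrelated genes lie as close to Actb as its paralog does.

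Near-identical copies can share reads with some members. In GENCODE M21, stretches of at least 200 bases and 90% identity were shared by Actg1 with 13 other genes, 12 of them pseudogenes, by Cfl1 with 4, by Actb with 3 and by Tmsb10 and Arpc2 with 1 each. The pseudogenes of Actg1 with the highest levels were Gm17228 (8.88, 15.7 and 11.7 TPM) and Gm12715 (5.62, 8.92 and 7.86 TPM), and Actg-ps1 had 1.68, 5.47 and 3.54 TPM. Gm9844, the copy of Tmsb10, had 12.0, 17.5 and 14.3 TPM. Lrrc58 shares 1347 bases with Actb at 90.6% identity and had 70.3, 46.5 and 43.9 TPM, the reverse order in mice 1 and 2. The analysed copies outside the members had low levels beside them. Actb and Actg1, both abundant, are also near copies of each other, at 91.1% identity over 337 bases, which bears on their ratio. How reads were divided between copies was not tested. Not analysed here were 5 of the copies of Actg1, the Cfl1 copy Gm44227 and AC154544.1, the only copy of Arpc2. Exons of Cfl1 overlap Snx32, those of Coro1a overlap Bola2 and those of Msn overlap Gm24718 on the opposite strand, and exons of Actg1 overlap Mir6935 and Gm23419 on the same strand. The effect of these overlaps on the values was not tested.

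The microRNA that these mice lack was compared with the members' transcripts. The mature form encoded at chr6:52230129-52230150 on the minus strand (GRCm38.p6, RefSeq) is shown with its seed, bases 2 to 8, in capitals, since the seed sets which transcripts can be matched.
mmu-miR-196b-5p: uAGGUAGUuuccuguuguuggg
The complement of the seed, ACTACCT, was searched on the sense strand of the annotated 3′ untranslated region of 1 transcript per gene. It was found in 0 of the 10 members, and in 5.62% of the 20755 genes that have such a region. The regions searched were short for several members, from 108 bases in Coro1a to 1918 in Msn, and a missing match says only that these letters are not there.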

How the data were processed

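RNA sequencing values of 3 leukemias, all of 1 group, were read from the deposited table. The values are TPM as deposited by the authors, although the table is named for log2 FPKM: they are linear, never below 0, and sum to nearly the same total per library. The submitters' processing notes name kallisto and mm10, and the annotation is not given in the sources used here. Per the labels' protocols, RNA with an integrity number above 8 was sequenced in stranded pairs of 150 bases. Another 3 columns hold samples that are not in this series and were not used. Rows without a gene symbol or with a date in its place (822, at most 0.787% of a library) were left out, and values of 90 symbols on several rows were summed. With 1 group no test was made. A pseudocount of 1 was added before taking log2, SDs are over 3 mice, and 1.5-fold was the mark for differences between pairs of mice. RefSeq synonyms matched 10 listed symbols to the table. Members, lists and alternatives were chosen with earlier results of these data known. Genes named beyond the members are, per list, the 3 highest and the 2 with the largest SD (all, in lists of 5 or fewer), the 5 nearest to Actb, copies of members and markers; genes named beside these as low were chosen after their values were seen. Coordinates, exons and transcript sequences are from GENCODE M21, and promoter windows and the microRNA from RefSeq, both on GRCm38, which mm10 is. Counting of differences was tested on simulated data with less noise than between these mice and with differences larger than 1.5-fold. That test checks the code and does not say how sure the counts are. The tools were blastn 2.17.0 for copies, matplotlib 3.10.9 for plots, and pandas 2.3.3 with numpy 2.4.6 under Python 3.11.15 for the rest. The depth reached is unknown, so no counting interval is given. Results of 1 list of upstream genes are not reported here by name.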

Additional observations from a re-analysis of the deposited data

How the results depend on the processing

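No paired analysis was possible because all 3 mice belong to a single group. Leaving out symbols on several rows was chosen after seeing the data. Of 302 recomputed values 271 moved by less than their spread (counts: by no more than 1.5 times), 31 moved further and 0 changed sign. Only the log2 ratios could change sign at all. All 70 recomputed member levels were among the first kind, which was fixed in advance. Leaving out 1 of 3 mice cannot move a mean by its SD, and the other settings hardly alter the mean of such abundant genes. The member levels therefore give no measure of robustness. The same holds for the mean share, median level and ratios when a mouse is left out. Adding rows of Actg pseudogenes changed the level of Actg1 alone, and leaving out symbols on several rows changed no member or list level. Median SDs and percentages were judged by their own SD over the runs that left out a mouse. The count of 271 includes all these and is no measure of robustness either. Upper-quartile scaling moved the median SD of the members from 0.235 to 0.266, and their counts highest in mice 1 and 3 from 1 and 0 to 0 and 1. Without a filter on low values the median SD of the other actin genes was 0.189. When a mouse was left out, the median SD ran from 0.149 to 0.182 for the members and from 0.155 to 0.170 for the other actin genes, since an SD over 2 mice tends to be smaller. In the remaining pairs, by construction, members highest in mouse 1 numbered 1 to 4 and in mouse 3 0 to 6, members lowest in mouse 2 numbered 0 to 1 and in mouse 3 4 to 10, and the other actin genes highest in mice 1, 2 and 3 made up 42.1% to 60.6%, 57.9% to 76.5% and 23.5% to 39.4%. The low-value filter cannot alter the members' own values. The depth reached is unknown, so counting error cannot be stated.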
